A study of Mus musculus with 12 samples.

Results

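RNA levels in 3 livers titled Caveolin-1 knockout were compared with those in 3 gonadal adipose tissues titled Wild type GWAT, on 6 of the 12 bead arrays of the series. The liver group was taken by its title. The fat group was selected on a measured value: of the fat groups with either title, it was the one with the lower mean of the Cav1 probe, at 110.2 against 15729 in the fat titled knockout. Both tissues thus had little Cav1 signal, although the fat arrays carry the genotype label WT and the liver arrays the label of the knockout. All mice were male FVB. Livers came from animals of 12 weeks and fat from animals of 8 weeks, taken at 3 PM under ketamine and xylazine, although the treatment text speaks of livers alone. The other 6 arrays, livers titled wild type and fat titled knockout (3 each), gave the same tissue contrast with Cav1 signal present.

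Cav1 runs against the labels in the fat, and the labels give no more on the knockout than its name, so the arrays are called by their titles throughout. Nothing in the labels ties each replicate to an animal of its own, and the spread on which the p-values rest may therefore be technical. Tissue, age, the genotype in the titles and the separate scale of each tissue's deposited values cannot be told apart. Nor, in whole tissue, can fewer cells of a type and less RNA per cell.

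Caveolin-1 is the main membrane protein of caveolae, small pits of the plasma membrane that are dense on adipocytes and endothelial cells and sparse on hepatocytes. Cavins form the coat around the pit, and EHD2 sits at its neck. Hepatocytes make most plasma proteins, clear nitrogen as urea, release glucose and make bile acids, under nuclear factors such as HNF4A. Adipocytes store triglyceride in a droplet coated by perilipins, release fatty acids by lipolysis and secrete hormones such as adiponectin and leptin, under PPARG and C/EBP factors.

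Each array held the linear intensity of 45281 probes, with a median of about 113 in liver and 69.2 in fat. A probe counted as above background when it exceeded the 95th percentile of 1528 odorant, vomeronasal and trace amine receptor probes on its array. Between 34.2% and 36.5% of probes passed on the knockout-titled liver arrays, and between 46% and 48.6% on the wild-type-titled fat arrays. Differences are liver minus fat on the log2 scale after background correction and quantile normalization over the 12 arrays. Over genes above background on all 6 arrays, values correlated at 0.972 to 0.986 between livers, 0.989 to 0.996 between fats and 0.669 to 0.693 between tissues.

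Array 1 of the wild-type-titled fat stood apart. Of 19057 genes, 75 lay over 2 log2 units above both other arrays of that group there, against 0 on array 2 and 4 on array 3, and 13 of the 75 were beta-defensins. Spint4, a protease inhibitor of the epididymis, read 10860 there and 66.6 and 53.6 on the others, values looked up after the pattern was seen. Of the 75 genes, 12 were above background in both tissues and 8 of those were called. On the liver side array 1 stood apart in 3 genes, the acute-phase genes Lcn2, Saa2 and Saa3. With fat array 1 left out, 4320 genes were called in place of 4288.

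Cav1 had probe intensities of 110.2, 117 and 113 in the knockout-titled livers and 112, 108 and 111 in the wild-type-titled fats. Its probe was below background on all 3 liver arrays and above it on all 3 fat arrays, where the threshold lay between 120.8 and 123 on the livers and between 70.35 and 72.7 on the fats. The wild-type-titled livers read 172, 167 and 210.4 and the knockout-titled fats 14598, 15114 and 17476. Only the last group was bright. Because the fat group was chosen on this probe, these levels are a description and carry no test.

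Of 10 caveola genes tested, 6 were above background on all 6 arrays, Cav1 not among them. Of these, 3 were called higher in fat and 1 higher in liver. Over all genes so seen, 17.9% were called higher in fat and 18.6% higher in liver. Cavin1, whose product starts the coat, read 150, 145 and 139 in knockout-titled liver and 6311, 6481 and 6421 in wild-type-titled fat, a difference of -6.49 (SE 0.11, limma adjusted p = 3.88e-11). Cavin2, which helps to shape the membrane, read 319, 312 and 363 in liver and 7652, 9269 and 9514 in fat, a difference of -4.92 (SE 0.12). For Cavin3, which joins the coat through cavin-1, liver read 154, 128 and 121 and fat 7895, 7463 and 7036, a difference of -7.20 (SE 0.27). The liver and fat arrays did not overlap for any of the 3 cavins, and each was above background on all 6.

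Cav2, the partner of caveolin-1 in the same oligomers, read 121, 122 and 134 in liver, above background on 1 of 3 arrays, and 2055, 2494 and 2916 in fat. The fitted difference was -5.69 (SE 0.22, adjusted p = 1.08e-08). Ehd2 was below background on every liver array, at 110, 119 and 102, and read 1169, 1250.3 and 1111 in fat, at least 24.4-fold higher in fat. Pacsin3, a membrane-bending protein found mainly in muscle, ran the other way, with 227, 219.8 and 195 in liver and 151, 133 and 126 in fat (difference 1.43, SE 0.18). That call was lost without the quantile step (0.37), without background correction (0.86), with an offset of 50 (0.95) and with the probes of a gene averaged (0.71). Pacsin1 (0.78), Pacsin2 (-0.033) and Cavin4 (-0.33) were not called, though Pacsin1 was without liver array 3 (1.02) or with array weights (1.03) and Pacsin2 was, toward fat, without the quantile step (-1.02), and Cav3 and Ror1 were below background in both tissues.

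**Figure D1:**
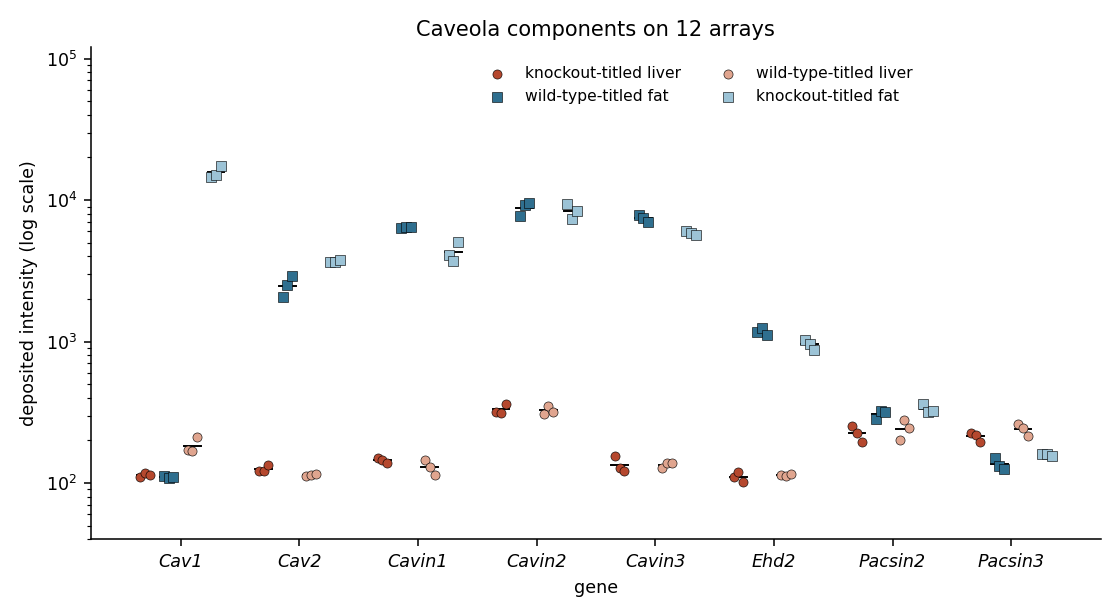
Deposited intensity (log axis) of 8 caveola genes on each of the 12 arrays, by group, with a bar at the mean of 3 arrays. In the wild-type-titled fats Cav1 sits at the level of the livers, while Cav2, the 3 cavins and Ehd2 sit far above the livers as in the knockout-titled fats.

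Of 11025 genes tested, 1834 were called higher in liver (16.6%) and 2454 higher in fat (22.3%), 38.9% together. A gene was called with an adjusted p under 0.05 and at least a 2-fold difference. A gene seen in 1 tissue alone passed the filter through that tissue. Counts are therefore taken over the 7522 genes above background on all 6 arrays. Of these, 1402 were called higher in liver (18.6%), 1345 higher in fat (17.9%) and 4775 neither way. The median difference of these 7522 genes was -0.00027. A further 293 genes were above background in liver alone, 284 of them called higher in liver. In fat alone there were 1547, of which 676 were called higher in fat. The background threshold was lower on the fats (70.35 to 72.7) than on the livers (120.8 to 123). A gene seen in fat alone was thus not always higher in fat. The split depended on the scale: of all calls 42.8% were higher in liver, but 17.4% with the tissues left as they were deposited, where the median of the 7522 genes lay at -0.74.

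**Figure D2:**
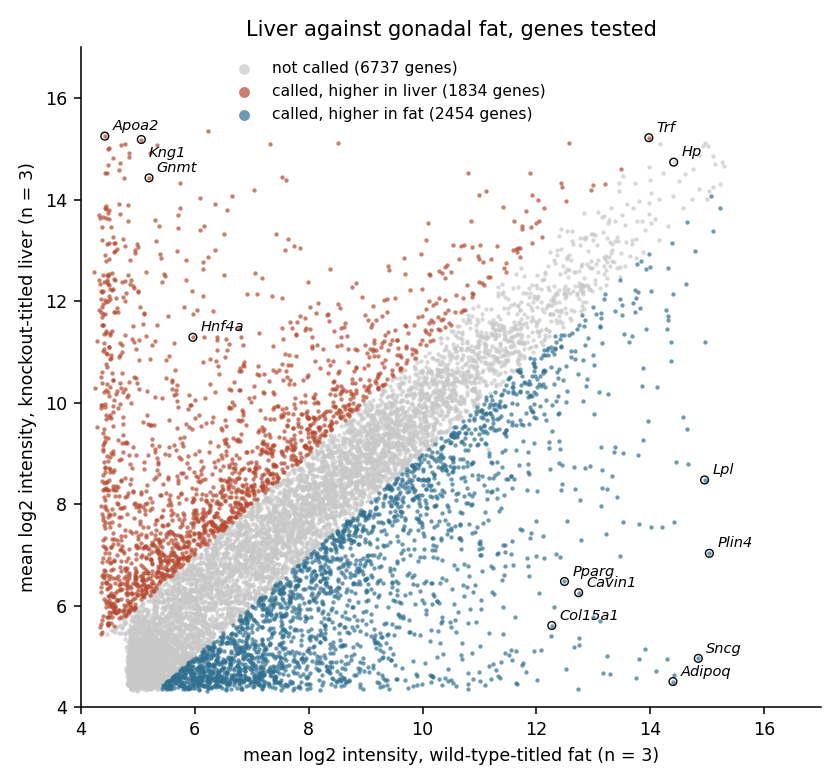
Mean log2 intensity of the 3 knockout-titled livers (vertical) against that of the 3 wild-type-titled fats (horizontal) for the 11025 genes tested, coloured by call. Plasma protein genes line the left edge, and Plin4, Lpl, Adipoq and Sncg the lower right.

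Of the pathway lists with at least 5 members seen in both tissues, bile acid, coagulation, apolipoprotein and urea cycle genes had the highest medians (3.94 to 4.49). Among single genes seen in both tissues the largest difference was that of Kng1, the precursor of bradykinin, with 42765, 41462 and 42254 in knockout-titled liver and 86.9, 84.2 and 78.2 in wild-type-titled fat (difference 10.12, SE 0.10). Apoa1, the main protein of high density lipoprotein, followed at 10.08, and Mup2, a major urinary protein that carries pheromones, at 10. Ahsg, fetuin-A, differed by 9.74, Gnmt, which uses up excess methyl groups, by 9.23 and Apoc3, an inhibitor of lipoprotein lipase, by 9.13. Cyp2d9, a cytochrome P450 higher in male mice, differed by 8.59 and Itih3, a serum inhibitor chain, by 8.31. Each had an adjusted p of at most 4.82e-10 and no overlap between the groups. Mup and Cyp2d genes have near-identical copies that a probe may share.

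Another 8 genes were below background on every fat array, so that only a bound could be given. Apoa2, also of high density lipoprotein, read 44855, 43739 and 43739 in liver and 51.5, 58.5 and 61.7 in fat, at least 1430-fold higher in liver. The bound was at least 1210-fold for Mup21, 1200-fold for Ambp, the precursor of α1-microglobulin, and 1060-fold for Mat1a, which makes S-adenosylmethionine. For Azgp1, a lipid-mobilizing serum protein, it was 965-fold, for Cyp2c70, which makes muricholic acids in mice, 866-fold, for Hamp, the iron hormone hepcidin, 863-fold and for Cps1, the entry enzyme of the urea cycle, 553-fold. These bounds depend on how bright the liver probe was and are not a ranking.

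Of 30 plasma carrier and binding protein genes on the array, 16 were seen in both tissues, 11 in liver alone, 0 in fat alone and 3 on some arrays of a tissue. Of the 16, 12 were higher in liver, 0 in fat and 4 not called, with a median of 3.53. The transthyretin gene Ttr read 37940, 38332 and 41462 in liver and 72.8, 65.2 and 71.2 in fat, above background on 1 of 3 fat arrays. Hpx, which binds heme, read 43739, 37637 and 38609 in liver and 73.2, 70.4 and 73.0 in fat, above background on 2 of 3 fat arrays. Both were called, and no liver array came near a fat array. Hp and Trf were bright in both tissues on these arrays. Hp, haptoglobin, read 31496, 31891 and 26575 in liver and 19258, 21520 and 21100 in fat, 0.33 on the log2 scale and not called, but called at 1.39 with arrays aligned on the median of shared genes. Trf, transferrin, read 42254, 42254 and 44855 in liver and 14486, 14866 and 15114 in fat and was called at 1.25. These 2 were picked after their values were seen.

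Apolipoproteins ran the same way. Of 16 on the array 9 were seen in both tissues and 6 in liver alone, with 8 of the 9 higher in liver, 0 in fat and a median of 4.01. Apob, the protein that holds very low density lipoprotein, read 8521, 10373 and 14544 in liver and 66.6, 63.6 and 62.9 in fat, at least 361-fold higher in liver. Apoe, made by many cell types, read 19609, 23363 and 21374 in liver and 7422, 8017 and 7175 in fat, a difference of 1.29, picked after its values were seen. Scarb1, the receptor for high density lipoprotein, was not called at 0.94, but was without liver array 3 (1.04) or with knockout-titled fats (1.30).

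Clotting and complement genes were split. Of 23 coagulation genes on the array, 9 were seen in both tissues, 8 in liver alone and 0 in fat alone. Of the 9, 5 were higher in liver, 1 higher in fat and 3 not called, with a median of 4.11, and 5 and 4 were called without the quantile step. Those higher in liver were Kng1, Fgg, the fibrinogen γ chain (8.0), and the clotting factors F10 (6.97), F5 (6.20) and F7 (4.11). Vwf, which endothelium makes, was higher in fat, at 174, 201 and 165 in liver and 1319.5, 1578 and 1306 in fat. Of 15 complement genes, 8 were higher in liver and 4 in fat, with a median of 1.71. Cfi, the protease that inactivates C3b, differed by 7.74 and C8b, of the membrane attack complex, by 7.43. The 4 higher in fat were C1qa (-1.78), C1qb (-1.50) and C1qc (-2.12), which macrophages make, and Cfp (-1.53), properdin of myeloid cells, 3 of them named after their values were seen. With arrays aligned on the median of shared genes, C1qb (-0.95) and Cfp (-0.79) were not called and the list stood at 9 higher in liver and 2 in fat.

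Urea cycle and gluconeogenesis genes leaned toward liver. Of 27 urea cycle and amino acid genes on the array, 11 were seen in both tissues, 12 in liver alone and 0 in fat alone. Of the 11, 10 were higher in liver and 0 in fat, with a median of 3.94. Arg1, which releases urea, read 15188, 15001 and 14211 in liver and 69.6, 69.0 and 69.0 in fat, at least 496-fold higher in liver. Hgd and Hpd, of tyrosine breakdown, were at least 334-fold and 216-fold higher in liver. Of 11 gluconeogenesis and glycogen genes, 8 were higher in liver and 0 in fat, with a median of 3.36. G6pc, the last step of glucose release, read 6068, 7585 and 13440 in liver and 97.1, 98.6 and 100.1 in fat (difference 7.54, SE 0.24). Every liver lay far above every fat for this gene. Ppp1r3b, which brings phosphatase to liver glycogen, differed by 4.67, and Khk, which phosphorylates fructose, by 4.26.

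Bile acid and detoxifying enzymes followed. Of 22 bile acid genes on the array, 8 were seen in both tissues, 8 in liver alone and 5 in neither. Of those seen in both, 6 were higher in liver and 0 in fat, with a median of 4.49. Cyp7a1, the rate-limiting enzyme of bile acid synthesis, read 4009, 5388 and 7606 in liver and 50.02, 57.7 and 51.3 in fat, at least 189-fold higher in liver. Cyp8b1, which sets the share of cholic acid, had a bound of 461-fold, and Slco1b2, a transporter that takes up bile acids, 133-fold. Abcb4, which exports phospholipid into bile, differed by 6.83. Of 43 cytochrome P450 genes, 12 were seen in both tissues, 16 in liver alone and 1 in fat alone. Of the 12, 8 were higher in liver and 2 in fat, with a median of 2.18. The 2 in fat were Cyp4b1 (-2.20) and Cyp2s1 (-1.97), named after their values were seen. Of 20 conjugating enzymes 12 were higher in liver and 4 in fat, with a median of 1.25, and the largest toward fat was Mgst3, a microsomal glutathione transferase (-4.82).

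Transcription factors of hepatocytes were mostly undetected in fat. Of 15 tested of 16 on the array, 9 were above background in liver alone and 5 in both tissues, of which 3 were higher in liver and 1 in fat. Hnf4a, which drives much of the hepatocyte programme, read 2535, 2358 and 2559.7 in knockout-titled liver and 124, 131 and 151 in wild-type-titled fat (difference 5.32, SE 0.13). Nr1h4, the bile acid receptor FXR, differed by 6.07. Foxa3, a pioneer factor, read 3996, 3912 and 3008 in liver and 64.4, 64.9 and 73.1 in fat, above background on 1 of 3 fat arrays. Nr1i3, the xenobiotic receptor CAR, was at least 101-fold higher in liver. Cebpa, which both cell types use, was higher in fat at -2.02, named after its values were seen. Peroxisomal oxidation genes stood with them: 11 of 14 were higher in liver and 0 in fat, with a median of 2.27. Uox, urate oxidase, read 12670, 13673 and 14073 in liver and 76.3, 67.7 and 77.9 in fat, above background on 2 of 3 fat arrays. Abcd2, which imports very long fatty acids, was brighter in fat, at 112, 99.9 and 141 in liver and 1708, 1959 and 1926 in fat.

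Of the pathway lists with at least 5 members seen in both tissues, collagen chains (-4.40) and matrix glycoproteins (-3.96) had the lowest medians. Plin4, which coats nascent droplets, read 183, 185 and 182 in knockout-titled liver and 29128, 30001 and 29552 in wild-type-titled fat (difference -8.0, SE 0.087, adjusted p = 3.56e-12). Lpl, the lipase that frees fatty acids from lipoproteins, read 417, 337 and 342 in liver and 25099, 29688 and 30333 in fat (difference -6.47, SE 0.13). Nupr1, a stress-induced regulator, differed by -7.40, Lgals1, galectin-1, by -6.76, Col15a1, a basement membrane collagen, by -6.66 and Fhl1, a LIM domain protein, by -6.65. Cavin1 and Cavin3 were also among the 8 largest. None of the 8 overlapped between the groups.

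Several genes called higher in fat were below background on all livers. Adipoq, adiponectin, read 107, 112 and 106 in liver and 21187, 18775 and 21302 in fat, at least 560-fold higher in fat. Sncg, γ-synuclein, had a bound of 762-fold, Aoc3, an amine oxidase of the adipocyte surface, 566-fold, and Tmem45b, a membrane protein, 458-fold. The bound was 357-fold for Rgcc, a regulator of cell cycle, 259-fold for Chst1, a sulfotransferase, 238-fold for Nnat, neuronatin, and 176-fold for Adig, adipogenin. Lep, leptin, read 125, 116 and 111 in liver, above background on 1 of 3 arrays, and 12097, 13637 and 13637 in fat. Of 16 hormone genes on the array, 8 were seen in both tissues, 4 in fat alone and 1 in liver alone. Of the 8, 2 were higher in fat, 2 in liver and 4 not called, and their median was -0.64, or 0.27 with arrays aligned on the median of shared genes. Among all genes seen in both tissues 17.9% were higher in fat and 18.6% in liver. Rbp4, the retinol carrier counted as an adipokine, was higher in liver, at 4782, 4694 and 4379 in liver and 290.1, 254 and 294 in fat.

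Of 12 lipolysis and glycerol genes on the array 5 were seen in both tissues and 4 in fat alone. Of the 5, 4 were higher in fat and 1 in liver, with a median of -2.39. Those higher in fat were Pnpla2, the first triglyceride lipase (-3.75), its activator Abhd5 (-2.39), Mgll, the last lipase (-2.05), and Gpd1, which makes glycerol phosphate (-2.67). Aqp9, a glycerol channel, was the 1 higher in liver. Lipe, hormone-sensitive lipase, read 118, 110 and 119 in liver and 2549.6, 2811 and 2426 in fat, at least 62.9-fold higher in fat. Npr3, which clears natriuretic peptides, read 118, 121 and 123 in liver and 5896, 6250.3 and 5905 in fat, and Hcar1, the lactate receptor that restrains lipolysis, had a bound of 82.6-fold. Of 10 triglyceride assembly genes 4 were higher in fat and 2 in liver, beside 17.9% and 18.6% of all genes seen in both tissues. The counts were 6 and 1 without the quantile step and 3 and 3 with arrays aligned on the median of shared genes. Dgat1, of the last step, differed by -3.12, and Lpin2 by 4.06.

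Of 39 matrix glycoproteins and proteoglycans on the array, 22 were seen in both tissues, 6 in fat alone and 0 in liver alone. Of the 22, 19 were higher in fat, 1 in liver and 2 not called, with a median of -3.96. Dpt, dermatopontin, read 123, 127 and 125 in liver and 3036, 2901 and 2698 in fat (difference -5.97, SE 0.13), and Mmp2, a gelatinase, differed by -5.33. The 1 higher in liver was Vtn, vitronectin of plasma, at 23556, 22596 and 21933 in liver and 285, 354 and 314 in fat. Of 19 collagen chains, 10 were seen in both tissues, 5 in fat alone and 0 in liver alone. Of the 10, 7 were higher in fat and 1 in liver, with a median of -4.40. Col6a1 read 255, 223 and 220.2 in liver and 13867, 14112 and 11349 in fat (difference -6.19). Col4a1, of basement membranes, differed by -4.52 and Col5a1 by -4.46. Col1a1 read 122, 123 and 107 in liver, above background on 1 of 3 arrays, and 3374, 3658 and 2312 in fat.

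Factors of adipogenesis were not all on the fat side. Of 17 seen in both tissues, 5 were higher in fat, 4 in liver and 8 not called, or 7 and 3 without the quantile step. Over all genes so seen, 17.9% were higher in fat and 18.6% in liver. Pparg, the master regulator of adipocytes, read 141, 160.1 and 161 in liver and 4911, 5562 and 5972 in fat (difference -6.01, SE 0.16). Ebf2, Klf4 and Hoxc9 were below background in every liver and at least 12.4-fold, 10.2-fold and 8.62-fold higher in fat. Those higher in liver were Id2 (2.83), Ppargc1b (1.97), Cebpb (1.21) and Klf15 (1.12), named after their values were seen, and Klf15 lost its call without the quantile step (0.27), without background correction (0.57), with an offset of 50 (0.62), with knockout-titled fats (0.85) and without liver array 2 (0.94). Of 13 brown and beige fat genes on the array, 4 were seen in both tissues, 5 in fat alone and 1 in liver alone. Of the 4, 2 were higher in liver, Slc27a2 and Eva1a, and 1 in fat, Cox7a1, or 2 and 0 without background correction. Ucp1 read 60.7, 94.1 and 67.9 in these fats and did not pass the filter. Cidea read 228, 336 and 177 and was at least 3.47-fold higher in fat. The bound was 4.1-fold for Cox8b and 3.87-fold for Kcnk3.

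The starts of 4 of these genes are shown because they carry, in the 100 bases before the start, a short motif of a factor tied to hepatocytes or adipocytes. Sequences are those of RefSeq on GRCm38.p6, 5′ to 3′ on the gene's strand, with the motif in capitals. They were picked after the sequences were seen.
Alb, the albumin gene (chr5:90460770-90460869, plus strand), holds the HNF1 core GTTAAT. Hnf4a (chr2:163547055-163547154, plus strand) holds that core on the other strand at 2 places. Cyp2c70 (chr19:40187287-40187386, minus strand) holds the HNF4 core CAAAGTCCA and Plin1 (chr7:79732777-79732876, minus strand) the C/EBP site TTGCNCAA.
Alb: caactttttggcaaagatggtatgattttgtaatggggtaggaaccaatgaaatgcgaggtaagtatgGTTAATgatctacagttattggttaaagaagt
Hnf4a: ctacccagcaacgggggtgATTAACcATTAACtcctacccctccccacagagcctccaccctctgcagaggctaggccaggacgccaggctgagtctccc
Cyp2c70: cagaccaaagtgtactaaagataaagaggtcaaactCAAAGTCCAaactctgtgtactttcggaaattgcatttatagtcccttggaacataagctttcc
Plin1: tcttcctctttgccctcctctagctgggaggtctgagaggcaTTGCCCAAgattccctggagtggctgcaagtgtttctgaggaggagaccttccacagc
Each motif was searched on both strands in windows from 250 bases before to 50 after each start, and matches may overlap. GTTAAT lay in 9.86% of 842 windows of genes called higher in liver by at least 2 on the log2 scale, in 3.36% of 1073 windows of genes as far toward fat, in 4.83% of 11431 windows of all genes tested and in 7.1% of all 32851 windows. CAAAGTCCA lay in 2.02% of the liver windows, 0.28% of the fat windows, 0.551% of the tested and 0.475% of all. TTGCNCAA lay in 5.58% of the liver windows, 3.82% of the fat windows, 2.68% of the tested and 2.94% of all. AAAGGTCA, a PPAR core, lay in 2.85% of the liver windows, 0.839% of the fat windows, 1.11% of the tested and 1.51% of all. The TATA box TATAAA lay in 13.2% of the liver windows, 10.1% of the fat windows, 8.09% of the tested and 13.6% of all. The CRE motif TGACGTCA ran the other way, with 1.19% of the liver windows, 1.86% of the fat windows, 2.74% of the tested and 1.79% of all. A match is a run of letters and was not tested as a site. Alb itself had a dim probe, at 338, 315 and 436 in liver and 55.3, 56.2 and 54.0 in fat, at least 12.9-fold higher in liver.

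Where a step of metabolism has a liver form and a form of fat or muscle, the members called often lay on opposite sides. Of 27 such pairs, 14 had both genes tested, and in 8 the first was called higher in liver and the second higher in fat, with 0 pairs the other way. Beside this, 16.6% of all genes tested were called higher in liver and 22.3% higher in fat. The pairs were chosen for known tissue forms, so the count describes them and is not independent of that choice. Of the 8, only Cox7a2 and Cox7a1 were both seen in both tissues. In the others a gene passed the filter through 1 tissue, so the filter helped to set the count.

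Glucose transporters parted. Slc2a2, GLUT2 of hepatocytes, read 356, 562 and 1135 in liver and 62.0, 58.3 and 61.3 in fat, at least 23.1-fold higher in liver. Slc2a4, the insulin-responsive GLUT4, read 137, 103 and 106 in liver and 842, 1017 and 870.4 in fat, above background on 1 of 3 livers (fitted difference -4.50, SE 0.38). Pklr, liver pyruvate kinase, above background on 1 of 3 fats, had a fitted difference of 3.38, and Pkm, the form of other tissues, differed by -4.74, with 211, 218 and 201 in liver and 4593, 4666 and 3870 in fat. Fbp1 differed by 6.0, and Fbp2, the muscle fructose bisphosphatase, was at least 4.53-fold higher in fat. Cox7a2 and Cox7a1, alternative subunits of cytochrome oxidase, differed by 2.64 and -1.34. Cox7a1 was not called without background correction (-0.87) or with an offset of 50 (-0.96), and its pair then drops out of the 8.

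Lipid handling parted in the same manner. Slc27a2, a fatty acid transporter of liver, read 17202, 18845 and 20232 in liver and 241, 177 and 168 in fat (difference 7.42), while Slc27a1 read 115, 132 and 112 in liver and 2124, 2033 and 2063 in fat, above background on 1 of 3 livers (fitted difference -5.79). Of the CIDE proteins, which fuse or load lipid particles, Cideb differed by 5.49, and Cidec, above background on 1 of 3 livers, had a fitted difference of -6.85. Aqp9, the glycerol channel of hepatocytes, read 8478, 8803 and 9986 in liver and 643, 220.2 and 227 in fat, while Aqp7, that of adipocytes, was at least 36.2-fold higher in fat. A second Aqp9 probe read the other way, at -1.18. Ppara, which drives fatty acid oxidation, was at least 7.88-fold higher in liver, while Pparg differed by -6.01.

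Other pairs did not part. Scd1, a desaturase, read 17264, 18289 and 20519 in liver and 31331, 28809 and 30853 in fat (difference -1.0), a call at the edge of the 2-fold minimum. It was lost without liver array 1 (-0.94), liver array 2 (-0.98), fat array 1 (-0.98) or fat array 3 (-0.99), and the value was 0.15 with arrays aligned on the median of shared genes. Its relative Scd2 was at least 5.82-fold higher in fat. Plin2, the droplet coat of most cells, read 1119, 1269.7 and 1447 in liver and 1625, 1516 and 1742 in fat and was not called (-0.056), while Plin1 was at least 29.4-fold higher in fat. Gys2, Lpin2 and Arg1 were higher in liver, at 3.36, 4.06 and a bound of 496-fold, while Gys1, Lpin1 and Arg2 were not called. Of the phosphofructokinases, Pfkl was not called at -0.99, near the 2-fold minimum. Pfkp, not above background on every array, was called higher in fat with a fitted difference of -3.13. The probes of the fatty acid binding proteins Fabp1 and Fabp4 were dim: Fabp1 was below background everywhere and Fabp4 read 108, 100.2 and 101 in liver and 86.1, 85.6 and 74.8 in fat.

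**Figure D3:**
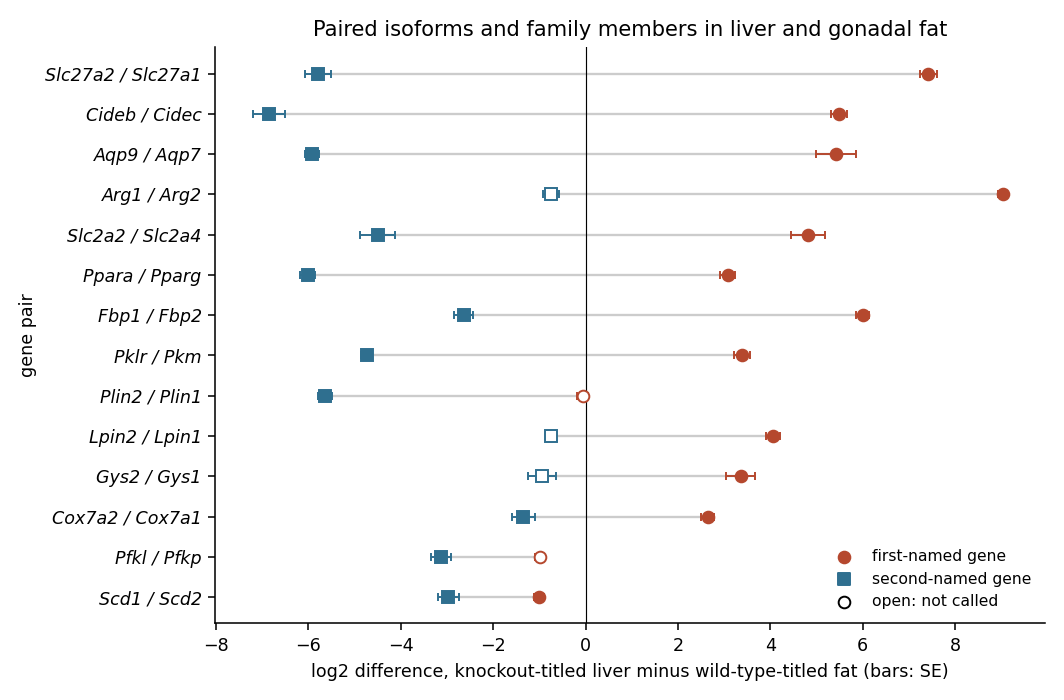
Fitted log2 difference, knockout-titled liver minus wild-type-titled fat, of the 14 gene pairs with both members tested (bars are SE, open symbols not called). In 8 pairs the first gene lies right of 0 and the second left, both called, and the values of genes seen in 1 tissue are fits, not bounds.

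Of 64 respiratory chain subunits seen in both tissues, 12 were higher in liver, 1 in fat and 51 not called, with a median of 0.23. The share higher in liver was near the 18.6% of all genes seen in both tissues. That higher in fat was below their 17.9%. Aligned on the median of shared genes instead, 38 were higher in liver and 1 in fat, with a median of 1.13. Atp5a1, of ATP synthase, read 686, 704 and 839 in liver and 181, 148 and 155 in fat (difference 3.32), and Ndufb9, of complex I, differed by 3.07. Of 20 citric acid cycle and pyruvate dehydrogenase genes 6 were higher in liver and 5 in fat, against 4 and 8 without the quantile step and 7 and 3 with the alignment. Suclg2 led toward liver at 2.15, and toward fat Pdk4, which shuts off pyruvate dehydrogenase, at -3.06, and Idh3a at -2.24.

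Of 19 mitochondrial fatty acid oxidation genes, 10 were higher in liver and 0 in fat, with a median of 1.35. Acaa2, the last thiolase of the cycle, read 5153, 6984 and 9847 in liver and 1529.6, 1689.9 and 1539.8 in fat (difference 2.27, SE 0.19). Acsm3, which activates medium-chain acids, differed by 3.47 and Eci2 by 3.12. Of 17 cholesterol genes 12 were higher in liver and 0 in fat, with a median of 1.90, against 10 and 2 without the quantile step. Tm7sf2 differed by 3.21, Hsd17b7 by 2.71 and Ebp by 2.66, all of the later synthesis steps. Abcg5 and Abcg8, which together export sterols into bile, were at least 158-fold and 96.5-fold higher in liver. Oxct1, which lets tissues other than liver burn ketone bodies, read 172, 189.8 and 172 in liver and 4151, 4562 and 4427 in fat (difference -5.18).

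Secretory and defence genes took both sides, where 18.6% of all genes seen in both tissues were higher in liver and 17.9% in fat. Of 23 genes of the unfolded protein response and secretory pathway, 10 were higher in liver and 0 in fat, with a median of 0.91, led by Pdia6, a folding enzyme (2.69), and Ern1, the stress sensor IRE1α (2.68). As deposited, with no joint scale, 4 were higher in liver and 3 in fat. Of 19 antioxidant genes 6 were higher in liver and 4 in fat, against 4 and 4 without the quantile step and 10 and 3 with the alignment. Cat, catalase, differed by 2.53, and the secreted Gpx3 and Sod3 by -5.49 and -4.29. Of 12 clock genes 3 were higher in liver and 1 in fat, or 2 and 4 without the quantile step: Bhlhe40 differed by 2.90, and Per3 by -1.0, a call lost without background correction (-0.66), with an offset of 50 (-0.73), with the probes of a gene averaged (-0.57), with wild-type-titled livers (-0.93), and without liver array 1 (-0.94), liver array 2 (-0.85) or fat array 1 (-0.98).

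Of 16 insulin signalling genes, 3 were higher in fat, 2 in liver and 11 not called, or 7 and 1 without the quantile step. Of all genes seen in both tissues 17.9% were higher in fat, near the share of these genes, and 18.6% higher in liver. Grb10 and Grb14, related adaptors that restrain the insulin receptor, lay on opposite sides. Grb10 read 176, 169 and 192 in liver and 1332, 1218 and 1279.8 in fat, and Grb14 228, 269 and 244 in liver and 78.2, 77.2 and 79.2 in fat. Their differences were -3.06 and 2.79.

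Other lists were split as well, counted over members seen in both tissues. Over all genes so seen, 18.6% were higher in liver and 17.9% in fat. Of 12 fatty acid uptake genes 4 were higher in liver and 3 in fat, of 12 lipogenesis genes 4 and 2, of 10 lipid droplet genes 2 and 2, and of 14 glycolysis genes 3 and 2. These counts turned with the scaling: without the quantile step uptake stood at 2 higher in liver and 5 in fat, droplet genes at 2 and 5, and glycolysis at 3 and 5, and with the alignment lipogenesis at 5 and 0. Of 9 growth hormone and sex-biased liver genes 5 were higher in liver and 1 in fat. Of 12 interferon and MHC class II genes 1 was higher in liver and 5 in fat. Of 3 ketone body genes 2 were higher in liver, and Oxct1 was the 1 in fat.

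**Figure D4:**
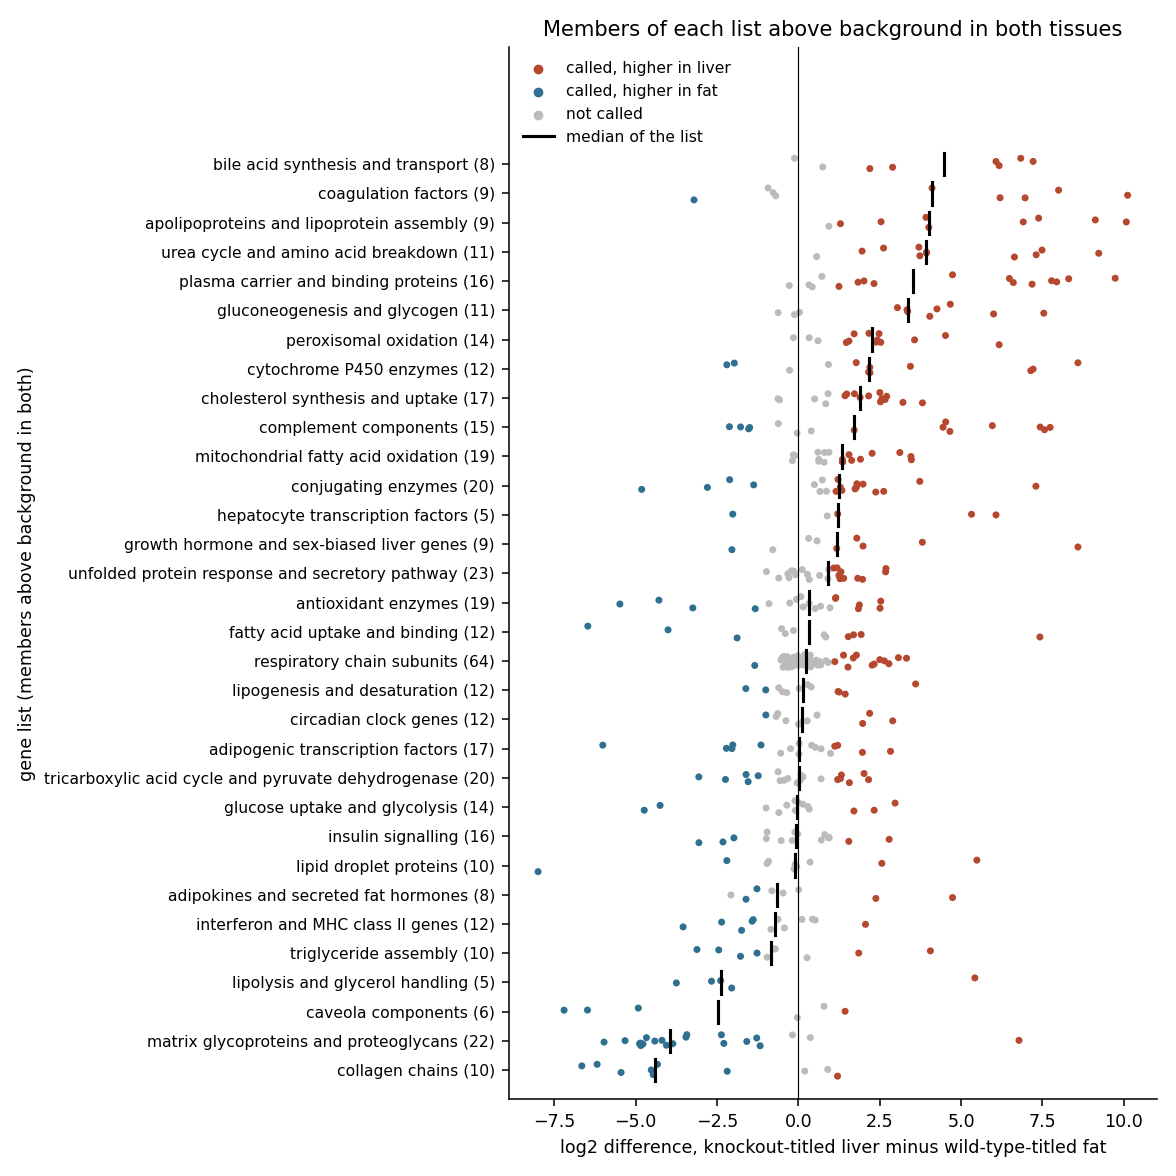
Fitted log2 difference, knockout-titled liver minus wild-type-titled fat, of each list's members above background in both tissues, with the list's median as a bar and the number of members in brackets (lists of at least 5). Matrix, collagen and lipolysis medians lie left of 0 and those of plasma protein, urea cycle and bile acid genes right of it.

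Markers matched the labelled tissues. Of 14 hepatocyte markers on the array, 12 were above background in every knockout-titled liver, and their summed level was 239070 to 263460 in liver and 18551 to 19847 in fat, where Alb, Apoa2, Apob, Tat, Cps1, Cyp3a11 and Fgb were below background on all arrays. Of 10 adipocyte markers 10 were above background in every wild-type-titled fat, with sums of 2682 to 3285 in liver and 105140 to 119000 in fat. In liver Adipoq, Plin1, Lipe, Retn and Fabp4 were below background.

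Other cell types differed between the tissues too. Their marker lists share genes with the pathway lists, such as Col1a1, Dpt and C1qa, so the 2 kinds of list are not independent. The part of these cell types in the results was not tested. Of 12 macrophage markers seen in both tissues, 8 were higher in fat and 2 in liver, with sums over 15 markers of 5776 to 5925 in liver and 28624 to 33058 in fat. Lgals3, galectin-3, read 479.8, 435 and 322 in liver and 8017, 8137 and 8759 in fat (difference -4.47). Of 5 markers of Kupffer cells, the macrophages of liver, seen in both tissues, 3 were higher in liver and 2 in fat. Clec4f, their marker in mice, was at least 46.6-fold higher in liver, and Vsig4 and Slc40a1 differed by 3.18 and 3.29, while Folr2, of resident macrophages, differed by -3.05 and Cd163, a scavenger receptor, by -1.08. Cd163 lost its call without background correction (-0.77), with an offset of 50 (-0.84), with the probes of a gene averaged (-0.53), with wild-type-titled livers (-0.998) and without liver array 2 (-0.997) or 3 (-0.80).

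Vascular and stromal markers stand beside the caveola and matrix genes, and some, such as Mfap5, are also on the matrix list. Of 12 endothelial markers from outside the sinusoids 10 were higher in fat and 1 in liver, with sums of 3756 to 4475 in liver and 13090 to 13767 in fat. Cldn5, of tight junctions, differed by -3.02, and Pecam1, CD31, by -3.0. Of 6 markers of sinusoidal endothelium, the fenestrated lining of liver, 3 were higher in liver, 1 in fat and 2 not called. The 1 in fat was Stab1 (-1.58), whose other probes ran from -0.68 to 0.67. It was not called with the probes of a gene averaged (-0.53) or with knockout-titled fats (8.39e-06). Clec4g, a lectin of these cells, read 7361, 6068 and 5658 in liver and 72.3, 73.9 and 75.2 in fat. Of 6 fibroblast and progenitor markers 5 were higher in fat, with sums over 11 markers of 7833 to 8033 in liver and 37449 to 39447 in fat. Pi16 and Mfap5, of early progenitors, were at least 17.3-fold and 30.2-fold higher in fat. Upk3b, of mesothelium, differed by -4.26.

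Markers of male ducts, which lie against this fat, varied between its arrays. Adam7, of the epididymis, read 103, 108 and 116 in liver and 2342, 458 and 549 in fat. Svs5, of the seminal vesicle, read 115, 94.9 and 116 in liver and 332, 704 and 75.7 in fat, and its call was lost without fat array 1 (-2.31), fat array 2 (-1.65) or liver array 2 (-2.38). The fat sum over 13 such markers ran from 1156 to 4198, while in liver it ran from 4068 to 5229 through Krt8 and Krt18, and the other 11 were below background there.

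The 6 arrays with Cav1 signal gave largely the same calls. With wild-type-titled liver against knockout-titled fat, 1798 of 10904 genes were higher in liver (16.5%) and 2487 higher in fat (22.8%). Of the genes called higher in liver with low Cav1, 1520 were called so here too, 82.9% of that list and 84.5% of the other, and for fat 2030, 82.7% and 81.6%. No gene was called in opposite directions. The pairs share no array, though the arrays of a tissue share 1 distribution of values. Cavin1 differed by -6.49 in the low pair and -6.52 in the other, Lpl by -6.47 and -6.24, Hnf4a by 5.32 and 5.12, and Gnmt by 9.23 and 9.43.

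The test of the difference between the pairs called 166 of 11363 genes with a larger liver-minus-fat value in the low pair (1.46%) and 186 with a smaller one (1.64%). Cav1, which paired the groups, is left aside. Cav2 differed by 1.43 (SE 0.26, adjusted p = 0.00471): its wild-type-titled fats read 2055, 2494 and 2916 and its knockout-titled fats 3667, 3673 and 3748, while the livers were near background with either title. That call was lost with the probes of a gene averaged (0.75). None of Cavin1 (0.034), Cavin2 (-0.046), Cavin3 (-0.51) and Ehd2 (-0.45) was called.

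Rnase2a, an eosinophil ribonuclease, read 112, 99.9 and 112 in knockout-titled liver and 3562, 4153 and 4649 in wild-type-titled fat, and 102, 111 and 114 in wild-type-titled liver and 314, 478 and 427 in knockout-titled fat. Itgad, an integrin of macrophages, read 1141, 1139 and 1310.4 in wild-type-titled fat and 59.1, 54.6 and 56.7 in knockout-titled fat, and was below background on all livers of either title. The summed macrophage markers were 28624 to 33058 on the wild-type-titled fats and 18445 to 19845 on the knockout-titled fats, and their part was not tested. Serpina1d, an α1-antitrypsin gene, ran the other way, with 269, 310.4 and 239 in wild-type-titled fat and 1127, 1352 and 1626 in knockout-titled fat, while knockout-titled livers read 39840, 39840 and 40448 and wild-type-titled livers 42254, 40014 and 39840. Its copies are nearly identical and a probe may read several.

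By list, 5 of 18 collagen chains tested had a smaller value in the low pair and 0 a larger one, among them Col1a1 (-2.19) and Col15a1 (-1.84). Beside these list counts, 1.64% of all genes tested had a smaller value and 1.46% a larger one. Col1a1 read 3374, 3658 and 2312 in wild-type-titled fat and 1166, 1238 and 1290.4 in knockout-titled fat. Fibroblast marker sums, which include Col1a1 itself, were 37449 to 39447 and 31710 to 34958 in those groups. Of 20 fatty acid oxidation genes 3 had a larger value and 0 a smaller one, namely Acadl (1.61), Acsm3 (1.22) and Acaa2 (1.02). Acaa2 lost its call when any of 5 arrays was left out (0.80 to 1.0). With probes averaged Acadl (0.65) and Acsm3 (0.71) were not called either. Of 14 hormone genes tested 1 was larger, Nrg4, and 3 smaller, Retn, Agt and Metrnl. Of 10 lipolysis and glycerol genes 0 were larger and 2 smaller, Hcar2 and Gpd1. Of 30 plasma carrier genes 2 were larger, Serpina1b and Serpina1d, and 1 smaller, Orm2, whose call was lost with limma's robust eBayes (adjusted p = 0.0514).

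**Figure D5:**
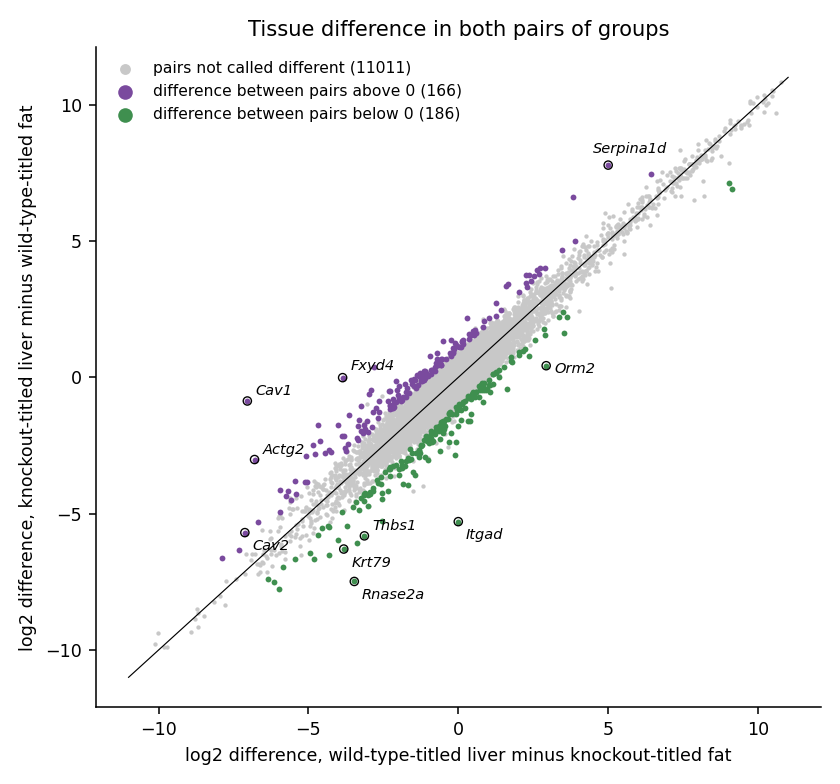
Log2 difference between tissues in the low pair (vertical) against that in the pair with Cav1 signal (horizontal) for 11363 genes, with the line of equal values. Most genes follow the line, and the 166 and 186 genes called different lie off it, Cav1 and Itgad farthest among those named.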

How the data were processed

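Bulk RNA of 12 samples was measured on Illumina mouse bead arrays, from biotin-labelled cRNA made with an Ambion kit, per the labels' protocols. The deposited values are linear intensity per probe. Sorted values of the arrays of a tissue differ by at most 0.461% in liver and 1.22% in fat, as after quantile normalization of each tissue apart, a step that no label or header records. Scanner settings are not given in the sources used here. Another 48 columns named by chip position match no sample and were not used. Of 45281 probes, 34885 had 1 gene symbol, 18 several and 10378 none, and 34807 matched RefSeq genes.

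Values were background-corrected with limma's normexp (version 3.58.1, R 4.3.3, offset 16, receptor probes as stand-ins for negative controls), set to log2, and quantile-normalized over the 12 arrays. The brightest probe over all arrays stood for a gene. A gene was tested if above background on all arrays of a group, with lmFit and eBayes (trend) and Benjamini-Hochberg adjustment over all genes tested. For a gene below background in all arrays of 1 tissue the fold is a lower bound, against, on each array, the higher of the dimmest probe above background and the gene's own value.

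Groups came from titles. Named were the 8 largest differences per direction seen in both tissues, the 8 highest bounds and up to 6 members a list. All caveola genes, the genes of the 14 pairs tested and the 8 largest pair differences per direction, Cav1 apart, were named too. Any other gene was named after its values were seen, as were those that account for small counts. Members and lists were chosen with earlier results of these data known. The tissue comparison was run on simulated data of 11025 genes. It recovered 87% of genes changed by 1.5 on the log2 scale and 96% of those changed by 3, with 2 false calls among unchanged genes. For the difference between pairs, with 11363 genes, 82% and 100% were recovered, with 3 false calls among unchanged genes. Independent noise was drawn on values already processed. The simulation thus cannot show errors from background correction, the filter or the joint scale. In the simulated tissue comparison 100 genes were changed by 1.5 and 100 by 3, while in the data 38.9% of genes tested were called. Its recovery and false calls need not carry over to the data. The number of arrays limits the precision.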

Additional observations from a re-analysis of the deposited data

Results flagged for a closer look

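Between the pair with low Cav1 and the pair with Cav1 signal, limma's test of the difference itself called 352 genes, Cav1 among them. Cav1, which paired the groups, is left aside, and the 8 largest others in each direction are given here. The liver-minus-fat value in the low pair minus that in the other pair was 3.85 for Fxyd4, 3.78 for Actg2, 3.20 for Crygc, 2.93 for Krt14, 2.78 for Serpina1d, 2.77 for Serpina1b, 2.45 for Ank1 and 2.38 for Aqp2. It was -5.29 for Itgad, -4.01 for Rnase2a, -2.73 for Cdsn, -2.71 for Fgf13, -2.68 for Kcnj15, -2.68 for Thbs1, -2.50 for Orm2 and -2.48 for Krt79.

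Serpina1d, Serpina1b and Orm2 were above background on all 12 arrays. The others were not above background on all livers of either title, so a change in their liver values is poorly measured. Orm2 lost its call with limma's robust eBayes (adjusted p = 0.0514). Actg2 was below background on every wild-type-titled liver but not on every knockout-titled liver. Itgad was below background on the knockout-titled fats and Crygc on the wild-type-titled fats, so their values are fits against a probe not above background. Fxyd4, Aqp2 and Crygc belong to the male duct markers, whose sum was 1156 to 4198 on the wild-type-titled fats and 1581 to 2134 on the knockout-titled fats. Actg2 is a smooth muscle marker, a list whose sum was 13998 to 16003 on the wild-type-titled fats and 18057 to 30716 on the knockout-titled fats. Array 3 of the knockout-titled fat stood apart in 15 genes. The part of these cell types in the differences was not tested.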

How the results depend on the processing

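Of the named genes called in the liver-against-fat comparison, Scd1 (0.15 with arrays aligned on the median of shared genes) and Stab1 (8.39e-06 with knockout-titled fats) changed sign. Cav1, not called, was 1.42 with wild-type-titled livers. Other uncalled genes near 0 changed sign: Pacsin1 (-0.85) and Scarb1 (-0.12) without the quantile step, Cavin4 (0.38), Fabp4 (0.024) and Plin2 (0.43) under that alignment, Plin2 (0.53) with knockout-titled fats and Pacsin2 (0.12) with wild-type-titled livers. Leaving out 1 array gave -0.17 to 0.12 for Pacsin2 and -0.14 to 0.030 for Plin2. The pair difference of Cavin1 was -0.088 without the quantile step, -0.099 with the alignment, -0.31 with no background correction, -0.28 with offset 50, -0.47 with probes averaged, -0.047 with array weights and -0.40 to 0.39 leaving out 1 array. That of Ehd2 was 0.025 without the quantile step and 0.014 with the alignment, and that of Cavin2 -0.15 to 0.047 leaving out 1 array.

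With no fold minimum 7505 genes were called with low Cav1, 5198 among those seen in both tissues, 8065 with Cav1 signal and 872 between pairs. With a minimum of 2 on the log2 scale the counts were 1888, 1008, 1872 and 33. Between pairs the count of 352 became 144 with no background correction, 175 with offset 50 and 190 with probes averaged. Leaving out 1 array gave 4297 to 4357 calls with low Cav1, 2772 to 2841 for genes seen in both, 4271 to 4364 with Cav1 signal and 257 to 499 between pairs. Calls higher in liver made up 42.8%, against 17.4% without the quantile step (5848 calls) and 47.1% with the alignment (4255 calls), where the median over shared genes lay at -0.74 and 0.11. Settings added after the data were seen called 4127 genes with knockout-titled fats and 4431 with wild-type-titled livers. The cause of these changes was not tested beyond what each setting removes.

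Same-numbered arrays did not pair (correlations of 0.0107, 0.0562 and 0.101). A replicate block gave 4294, 2749, 4285 and 352 calls in the order above. Over 3858 settings of single genes in the tissue comparison 3777 kept direction and call, 54 lost the call and 13 gained it.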
